A study of Homo sapiens with 16 samples.

Results

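Plasticity of epithelial cells, the capacity to leave and regain an epithelial state, was represented in this series by more than 1 kind of HMLER cell, and 2 of these kinds were set against each other here: C1-sgEED-Epi, epithelial cells carrying a guide RNA against EED, and C2-Epi, unedited epithelial cells. The comparison takes 4 of the 16 libraries of the series, chosen by their sample titles: 2 of C1-sgEED-Epi and 2 of C2-Epi. HMLER cells are human mammary epithelial cells that were immortalized and transformed with introduced genes, among them the telomerase gene TERT and an oncogenic form of HRAS, and all groups share this background. C1-sgEED-Epi has the genotype EED-KO and was derived from C1, which the submitters describe as stably epithelial, whereas C2-Epi has the genotype wild type, and both are described as plastic. Beside them stand C1-sgEED-Mes (EED-KO, mesenchymal), C2-Mes (wild type, mesenchymal), C1-sgControl (C1 with a control guide, labelled wild type) and C1 (wild type), each with 2 libraries. The other 4 libraries, of C1-sgKMT2D-Epi and C1-sgKMT2D-Mes (KMT2D-KO), entered the fit only. The comparison therefore joins a difference of genotype to one of cell origin (C1 or C2), and these cannot be told apart. Whether any of these kinds of cell is a single clone is not stated in the labels. Nor is it stated that the 2 libraries of a group came from separate cultures, and the p-values therefore cover no more than library-to-library spread, which may be technical. Growth medium with EGF, insulin and hydrocortisone was shared by all groups.

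EED is a core subunit of Polycomb repressive complex 2 (PRC2), which methylates histone H3 on lysine 27 and thereby helps to keep silent the genes of other lineages, above all developmental transcription factors and HOX genes. In mammary epithelium, basal cells are marked by keratins such as keratin 5 and keratin 14 and luminal cells by the simple keratins 8 and 18. The epithelial to mesenchymal transition (EMT) exchanges E-cadherin and keratins for N-cadherin, vimentin and a fibroblast-like matrix, driven by factors such as ZEB1, SNAI2 and TWIST1.

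The total count was 24071376 and 27350482 in the C1-sgEED-Epi libraries, against 25130084 and 23978627 in the C2-Epi libraries. Replicates correlated across genes with r = 0.989 in C1-sgEED-Epi and r = 0.993 in C2-Epi, and mitochondrial transcripts made up 7.01% and 7.27% of counts in C1-sgEED-Epi, against 7.93% and 8.08% in C2-Epi. On the second principal component of log2 CPM (19.3% of the variance; CPM, counts scaled to 1000000 per library) the C1-sgEED-Epi libraries lay at 51.2 and 53.0, the C2-Epi libraries at -45.6 and -51.1, and the C1 libraries at 0.0 and -2.0. C1-sgEED-Mes, at 94.9 and 99.6, and C2-Mes, at -118.2 and -100.0, lay farther out on the same sides as the epithelial cells of the same kind.

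**Figure D1:**
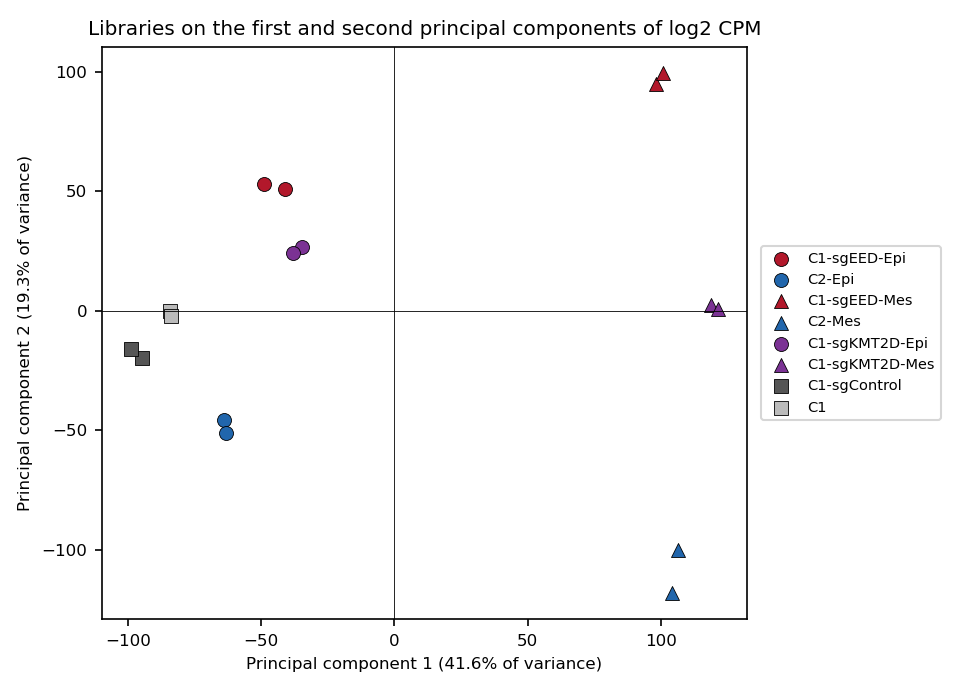
Scores of the 16 libraries on the first and second principal components of log2 CPM, each axis with its share of the variance (41.6% and 19.3%). Circles are epithelial, triangles mesenchymal and squares C1 and C1-sgControl libraries; the C1-sgEED-Epi libraries lie at 51.2 and 53.0 on the vertical axis and the C2-Epi libraries at -45.6 and -51.1.

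The epithelial label was checked against markers. The 6 basal markers summed to 6020 and 7050 CPM in C1-sgEED-Epi, against 7430 and 7380 CPM in C2-Epi, and none was at 0 in any of these 4 libraries. The 9 mesenchymal markers summed to 86.0 and 78.2 CPM in C1-sgEED-Epi and to 86.5 and 70.6 CPM in C2-Epi, against 4040 to 8050 CPM in the mesenchymal libraries of both kinds. E-cadherin (CDH1) was at 297 and 349 CPM in C1-sgEED-Epi and at 211 and 221 CPM in C2-Epi. The difference in CDH1 did not pass the test (log2 0.58, SE 0.226, adjusted p = 0.069 by edgeR), but passed in 4 other fits, among them a DESeq2 Wald test (adjusted p = 0.00046). In both kinds basal keratins and E-cadherin were thus high and these 9 mesenchymal markers low. The 9 leave out FN1, VIM and CDH2, which are described below. FN1 had 15200 and 17000 CPM in C1-sgEED-Epi and 12400 and 12500 CPM in C2-Epi. Its means were 96800 CPM in C1-sgEED-Mes and 36200 CPM in C2-Mes. A longer mesenchymal list that holds these 3 genes summed to 19900 and 22000 CPM in C1-sgEED-Epi and to 16300 CPM in each C2-Epi library. Of 5 markers each of endothelium, leukocytes, nerve and muscle, at most 1 per type exceeded 1 CPM in any of these 4 libraries. The leukocyte markers summed to 6.24 and 6.32 CPM in C1-sgEED-Epi, against 2.67 and 2.84 CPM in C2-Epi, and 3 of the 5 were at 0 in the second C1-sgEED-Epi library and in the first C2-Epi library.

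EED itself (ENSG00000074266, GRCh38 chr11:86244544-86278813, plus strand) was measured at 26.7 and 29.6 CPM in C1-sgEED-Epi and at 19.7 and 18.1 CPM in C2-Epi. It had 26.6 and 21.6 CPM in C1-sgControl and 28.1 and 26.5 CPM in C1, and the log2 difference of C1-sgEED-Epi from C1 was 0.05 (adjusted p = 0.86). Reads summed over a whole gene do not show a small edit in it, so this level does not test the label. The difference of C1-sgEED-Epi from C2-Epi (log2 0.57, SE 0.144, adjusted p = 0.0083) ended without the second C1-sgEED-Epi library (adjusted p = 0.073) or the second C2-Epi library (adjusted p = 0.11). EED lies in a stretch of chromosome 11 where most genes were higher in C1-sgEED-Epi, described at the end. The 5.22 and 5.5 CPM in C1-sgEED-Mes, against 11.2 and 12.5 CPM in C2-Mes, went the opposite way (log2 -1.15, adjusted p = 4.2e-05). Of the other core PRC2 genes, EZH2, the methyltransferase, had 37.8 and 42.3 CPM in C1-sgEED-Epi and 34.5 and 36.8 CPM in C2-Epi (adjusted p = 0.45), and SUZ12 had 72.5 and 41.3 CPM, against 76.1 and 88.3 CPM in C2-Epi (adjusted p = 0.23). Over 13 measured PRC2 genes 3 were higher and 3 lower (23.1% each), beside 17.4% and 12.2% of all genes. Both counts depended on single libraries.

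Between the kinds 3181 genes were higher in C1-sgEED-Epi, 17.4% of the 18285 tested, and 2236 were lower, 12.2%, at an adjusted p under 0.05 in edgeR's quasi-likelihood test. With a log2 difference of at least 1 in size, 1867 were higher (10.2%) and 1284 lower (7.02%). The higher genes outnumbered the lower most at large differences: at a log2 of 3 or more in size, 664 were higher (3.63%) and 159 lower (0.87%). Of 453 tested genes without a count in either C2-Epi library 188 were called higher, and of 209 without a count in either C1-sgEED-Epi library 37 were called lower. The median log2 difference over all tested genes was 0.04. The number called depended on single libraries: without the first or second C2-Epi library 1946 or 1760 genes were higher, without the second C1-sgEED-Epi library 1950, and without the second C2-Epi library 1389 were lower. In those fits 1 group has a single library, which is assumed to vary like the others.

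Relative to C1, C1-sgEED-Epi had 2292 genes higher than C1 (12.5%) and 2309 lower (12.6%), whereas C2-Epi had 2273 higher (12.4%) and 3347 lower (18.3%). Relative to C1-sgControl, an alternative chosen after seeing the data, C1-sgEED-Epi had 4438 genes higher (24.3%) and 4492 lower (24.6%), and C2-Epi had 4094 higher (22.4%) and 5082 lower (27.8%). The C1-sgControl libraries stood apart from C1 in whole lists. Of 35 cell cycle genes 33 were higher in C1-sgEED-Epi and 29 in C2-Epi than in C1-sgControl, whereas 10 and 2 were higher than in C1. Of 25 genes of the amino acid response 21 were lower in C1-sgEED-Epi and 20 in C2-Epi than in C1-sgControl, whereas 3 and 5 were lower than in C1. The comparisons with C1 share the C1 libraries, those with C1-sgControl share that group's, and on which side of C1 each kind lay can depend on which of these groups is used.

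The 12 protein-coding genes with the highest differences all had no count in C2-Epi. In these bulk samples, fewer cells that express a gene and less RNA of it per cell cannot be told apart. EYA4, a transcriptional coactivator and phosphatase of eye, ear and muscle development, had 21.3 and 16 CPM in C1-sgEED-Epi and 0 counts in both C2-Epi libraries. That is at least 167-fold higher, with a floor of 3 counts per library. It was also absent or nearly so from C1 (0 and 0.0409 CPM). LIN28B, an RNA-binding protein of embryonic and germ cells that blocks let-7 microRNA maturation, had 19 and 8.63 CPM against 0 counts in C2-Epi and in C1, at least 123-fold higher than C2-Epi. Its call was lost in the fit of only the compared libraries (adjusted p = 0.14). WT1, the zinc-finger factor of kidney and gonad development, had 7.01 and 7.26 CPM against 0 counts in C2-Epi and C1, at least 63.8-fold higher than C2-Epi. SIM2, a basic helix-loop-helix factor, had 6.4 and 7.69 CPM against 0 counts, at least 63.0-fold higher. DCN, which encodes the matrix proteoglycan decorin, had 10.2 and 10.1 CPM against 0 counts, at least 90.7-fold higher.

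The other 7 of these were JAKMIP2, CACNG8, EPDR1, DPY19L2, LIMCH1, GUCY1B1 and GPR173, at least 48.5-fold to at least 94.1-fold higher. CACNG8 is a regulator of AMPA-type glutamate receptors, GUCY1B1 a subunit of the nitric oxide receptor guanylate cyclase, and GPR173 an orphan receptor. They differed in where C1 lay. LIMCH1, an actin-binding protein, was at 8.11 and 6.42 CPM in C1-sgEED-Epi, 0 in C2-Epi and 3.9 and 4.5 CPM in C1, so that here C2-Epi was the kind farther from C1.

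The lowest genes included fewer at 0. CDHR1, a cadherin of photoreceptors, had 0 counts in both C1-sgEED-Epi libraries against 6.86 and 7.34 CPM in C2-Epi, at least 64.7-fold lower, and it had 0 counts in C1 as well. PDZRN3, a ubiquitin ligase, had 0 counts against 7.12 and 6.19 CPM, at least 60.6-fold lower. NTSR1, the neurotensin receptor, had 0.0762 and 0.0351 CPM against 12.1 and 11.5 CPM (C2-Epi over C1-sgEED-Epi 215-fold, 95% counting interval 73.4 to 1050). NYNRIN had 0.647 and 0.983 CPM against 20.9 and 18.9 CPM in C2-Epi and 34.3 and 35.0 CPM in C1, so that here C1-sgEED-Epi was the kind farther from C1. HPCAL4, a neuronal calcium sensor, had 1.22 and 1.02 CPM against 24.6 and 26.2 CPM. The other lowest were CABP4, C8orf88, SNRPN, DNALI1, RPS6KA6, ZP3 and INHBE, with log2 differences between -7.83 and -3.94. In each of the 24 genes at both ends, both C1-sgEED-Epi libraries lay on the same side of both C2-Epi libraries. These genes were chosen for large called differences in the same libraries, so their separation is no further support.

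**Figure D2:**
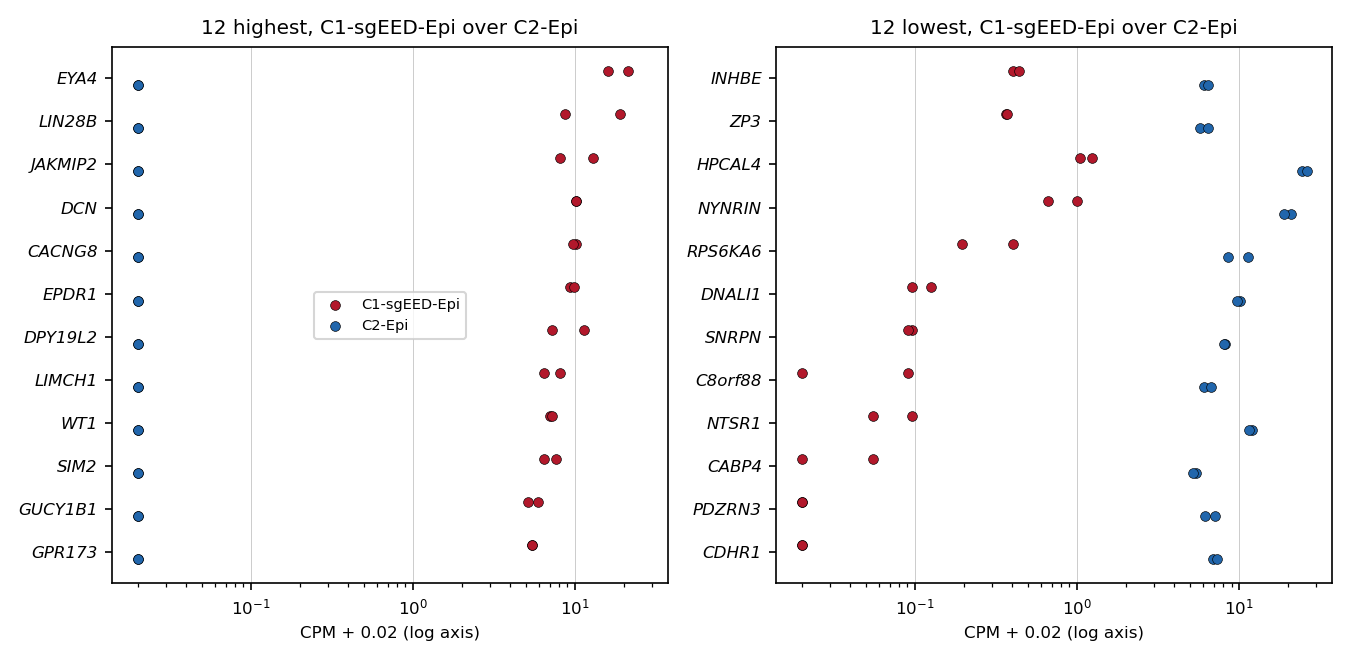
CPM plus 0.02 on a log axis of the 12 protein-coding genes with the highest and the 12 with the lowest log2 difference, each point 1 library, C1-sgEED-Epi in red above C2-Epi in blue. All 12 highest genes are at 0 in both C2-Epi libraries and between 5.12 and 21.3 CPM in C1-sgEED-Epi.

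The starts of some genes are shown because PRC2 is known to act mainly at promoters rich in CG dinucleotides. EYA4, CDHR1 and NTSR1 were picked from the genes at both ends, and GATA2 and HOXD10 from lists given below. The sequences are from RefSeq (GRCh38.p14), run from 250 bases before to 50 after an annotated start, and have each CG in capitals. EYA4 (chr6:133241107-133241406, plus strand), GATA2 (chr3:128493152-128493451, minus strand) and HOXD10 (chr2:176116528-176116827, plus strand) were higher in C1-sgEED-Epi, and CDHR1 (chr10:84194287-84194586, plus strand) and NTSR1 (chr20:62708586-62708885, plus strand) were lower. For GATA2 the first of the listed starts is shown.
EYA4: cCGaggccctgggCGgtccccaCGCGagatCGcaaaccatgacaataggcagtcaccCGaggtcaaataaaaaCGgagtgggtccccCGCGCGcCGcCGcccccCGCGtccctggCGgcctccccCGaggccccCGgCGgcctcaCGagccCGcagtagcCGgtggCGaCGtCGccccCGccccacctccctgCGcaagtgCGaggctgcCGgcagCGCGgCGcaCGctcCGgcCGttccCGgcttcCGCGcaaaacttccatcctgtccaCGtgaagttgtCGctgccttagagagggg
GATA2: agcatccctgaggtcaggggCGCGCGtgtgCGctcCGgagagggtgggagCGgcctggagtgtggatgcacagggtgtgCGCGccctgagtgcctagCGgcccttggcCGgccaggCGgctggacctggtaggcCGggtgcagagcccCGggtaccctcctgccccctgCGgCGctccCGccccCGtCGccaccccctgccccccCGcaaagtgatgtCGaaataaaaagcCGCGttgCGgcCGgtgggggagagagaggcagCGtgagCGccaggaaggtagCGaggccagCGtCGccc
HOXD10: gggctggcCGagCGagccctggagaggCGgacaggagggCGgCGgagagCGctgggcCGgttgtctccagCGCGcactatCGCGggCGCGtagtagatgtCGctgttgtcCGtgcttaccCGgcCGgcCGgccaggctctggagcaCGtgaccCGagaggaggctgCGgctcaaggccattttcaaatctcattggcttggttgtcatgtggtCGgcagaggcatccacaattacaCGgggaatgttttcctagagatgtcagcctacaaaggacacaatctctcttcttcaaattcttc
CDHR1: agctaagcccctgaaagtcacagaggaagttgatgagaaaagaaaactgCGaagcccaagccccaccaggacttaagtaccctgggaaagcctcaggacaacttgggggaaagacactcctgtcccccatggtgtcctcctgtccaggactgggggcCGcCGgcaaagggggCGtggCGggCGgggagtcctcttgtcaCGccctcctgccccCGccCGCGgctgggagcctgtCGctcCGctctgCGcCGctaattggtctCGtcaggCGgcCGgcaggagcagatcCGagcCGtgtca
NTSR1: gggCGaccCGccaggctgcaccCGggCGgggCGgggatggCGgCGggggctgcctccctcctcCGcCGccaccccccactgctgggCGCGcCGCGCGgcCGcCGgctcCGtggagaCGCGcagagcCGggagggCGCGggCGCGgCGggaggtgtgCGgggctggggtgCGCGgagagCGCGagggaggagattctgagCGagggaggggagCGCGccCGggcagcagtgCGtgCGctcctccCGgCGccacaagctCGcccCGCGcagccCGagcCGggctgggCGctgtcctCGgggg
These promoters hold 39, 29, 23, 19 and 45 CG dinucleotides in this order, in 300 bases. Of the tested genes 12272 matched a promoter by symbol, with a median of 26 CG, and 78.8% of them had at least 15. Among all 27305 promoters listed by RefSeq there, 48.8% had at least 15. Genes higher by a log2 of at least 1 had a median of 24, and 69.3% had at least 15, against a median of 23 and 68.5% for genes lower by as much. The 32 developmental transcription factors called higher that matched had a median of 24, and 90.6% had at least 15, against a median of 28 and 100% for the 18 that matched and did not pass the test.

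Developmental transcription factors, genes that direct the fate of other lineages, were often higher in C1-sgEED-Epi. Of 136 listed factors 82 passed the filter on low counts. Of these 48 were higher in C1-sgEED-Epi, 6 were lower and 28 did not pass the test, beside 17.4% higher and 12.2% lower of all genes. The median fitted log2 difference was 2.39, and 1.68 with genes at 0 in 1 group set to their bound, against 0.04 over all genes. A factor that passed the filter only through C1-sgEED-Epi had to differ, so the share and the median are to be read with the 54 that fell below it. Over the whole list of 136, 43 had no count in either C1-sgEED-Epi library and 78 had none in either C2-Epi library. With 1 library left out 36 to 42 were higher.

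GATA2, a factor of blood and endothelial development, had 5.22 and 5.51 CPM in C1-sgEED-Epi and 0 counts in C2-Epi, at least 48.0-fold higher. C1 expressed it too, at 3.14 and 2.99 CPM. MSX2, a homeobox factor of limb, skull and mammary gland, had 2.86 and 4.28 CPM against 0 counts, at least 31.9-fold higher. The neural and eye factors SOX2 (3.47 and 3.33 CPM against 0.0361 and 0 CPM) and PAX6 (2.67 and 2.67 CPM against 0.0722 and 0 CPM) were nearly absent from C2-Epi and from C1. The cardiac factor NKX2-5 had 8.68 and 11.1 CPM against 0.0722 and 0.154 CPM in C2-Epi. IRX4 had 15.5 and 18.5 CPM against 0.325 and 0.577 CPM in C2-Epi, log2 5.23. SOX2, PAX6, NKX2-5 and IRX4 were chosen after their values were seen, as are the other genes below that lie outside the naming rule.

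The levels ran low. NKX6-1, SOX17, TFAP2B and DLX6, for example, were called higher with 0.386 to 0.99 CPM in C1-sgEED-Epi and no count in C2-Epi. Against C1, 40 of the 82 factors were higher and 7 lower in C1-sgEED-Epi, while 4 were higher and 19 lower in C2-Epi. Against C1-sgControl, 34 were higher and 16 lower in C1-sgEED-Epi, while 7 were higher and 34 lower in C2-Epi. The 6 that were lower in C1-sgEED-Epi than in C2-Epi were IRX2, LHX6, SHOX2, PAX8, FOXL1 and PRDM8. PRDM8 had the largest of these differences, with 3.58 and 4.25 CPM against 12.2 and 13.4 CPM in C2-Epi (log2 -1.7).

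HOX genes, which give cells their position along the body axis, were mostly higher or did not pass. Of 39 listed genes 30 passed the filter. Of these 17 were higher (56.7%) and 1 was lower (3.33%), beside 17.4% and 12.2% of all genes, and the median log2 difference was 1.57. The lower was HOXA3 (1.56 and 2.21 CPM against 4.16 and 4.84 CPM, log2 -1.25, chosen after its value was seen). A HOX gene that passed the filter only through C1-sgEED-Epi had to differ. Over the whole list of 39, 2 had no count in either C1-sgEED-Epi library and 10 had none in either C2-Epi library. With 1 library left out 14 or 15 were higher. HOXD10 had 6.59 and 6.84 CPM in C1-sgEED-Epi, against 0 and 0.0384 CPM in C2-Epi (361-fold, counting interval 64.4 to 14300). HOXD9 had 1.75 and 1.44 CPM against 0 counts, at least 14.3-fold higher. In C1 the mean was 0.0417 CPM for HOXD10 and 0 CPM for HOXD9. HOXB6 had 4.84 and 4.42 CPM against 0 and 0.0384 CPM, and HOXB5 1.52 and 1.26 CPM against 0 counts, and C1 had a mean of 2.85 CPM of HOXB6 and 0.666 CPM of HOXB5. HOXB9 had 21.6 and 25.6 CPM against 0.759 and 1.04 CPM. Against C1, 7 HOX genes were higher and 2 lower in C1-sgEED-Epi, while 1 was higher and 13 lower in C2-Epi, and against C1-sgControl the counts were 9 and 2 in C1-sgEED-Epi and 3 and 13 in C2-Epi. HOXD9 and HOXD10 were thus near 0 in C1 and C2-Epi and present in C1-sgEED-Epi, while HOXB5 and HOXB6 were present in C1 and C1-sgEED-Epi and near 0 in C2-Epi.

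**Figure D3:**
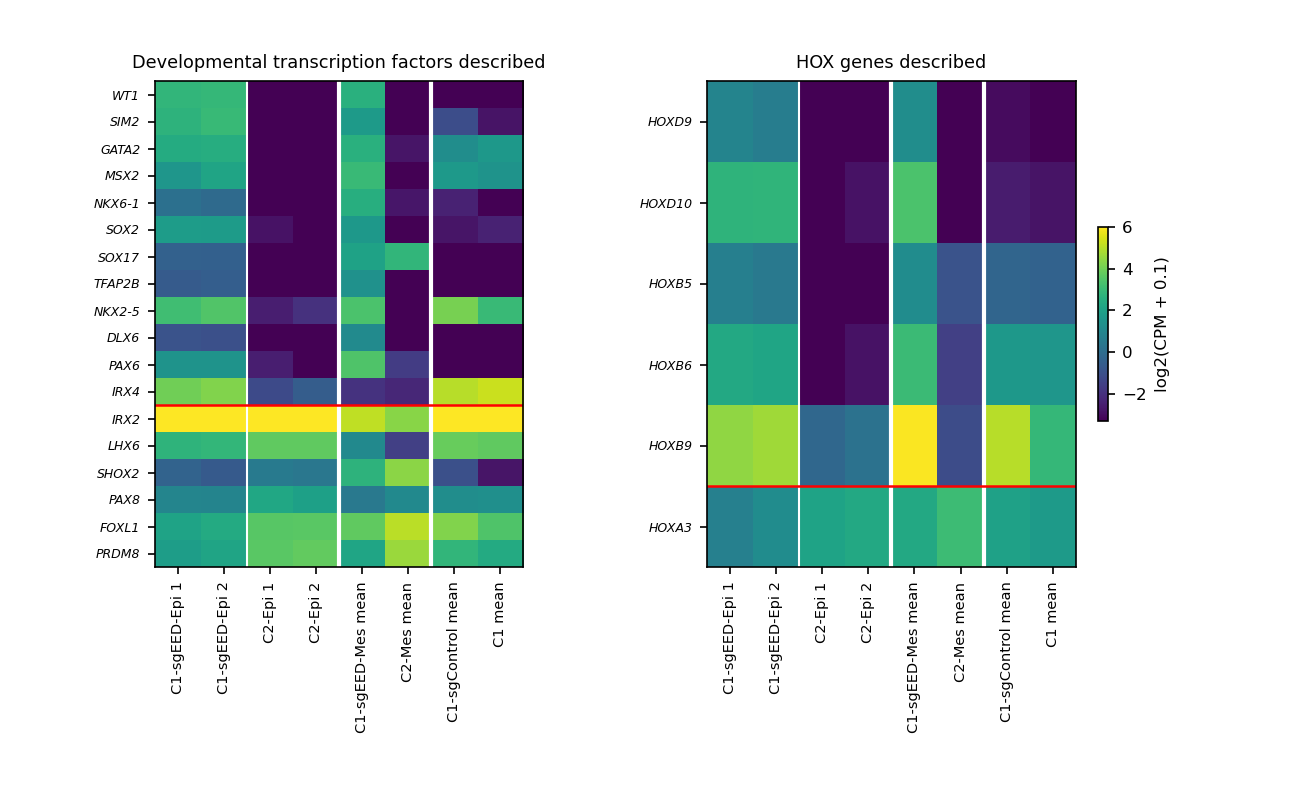
Levels, as log2(CPM + 0.1), of the developmental transcription factors (left) and HOX genes (right) described in the text and called between C1-sgEED-Epi and C2-Epi, in rows ordered by log2 difference, with those lower in C1-sgEED-Epi under the red line. The first 4 columns are single libraries and the others group means; HOXD9 and HOXD10 have a dark field in C2-Epi and C1, and values above 6 have the top colour.

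Keratins, the filament proteins of epithelia, differed between classes. The list called simple keratins also held KRT80 and the hair keratins KRT81 and KRT86. Of its 7 measured genes 6 were higher and none was lower, with a median log2 difference of 1.82. KRT8 had 650 and 756 CPM in C1-sgEED-Epi and 279 and 256 CPM in C2-Epi (log2 1.39, SE 0.140, adjusted p = 6.1e-06). KRT18, its partner in luminal filaments, had 639 and 746 CPM against 413 and 386 CPM (log2 0.79, adjusted p = 0.0012), and KRT7 had 1220 and 1350 CPM against 462 and 416 CPM (log2 1.55). KRT81, a hair keratin also made in breast cancer cells, had 88.3 and 97.1 CPM against 1.99 and 1.81 CPM (log2 5.61, SE 0.220, adjusted p = 2.2e-09), and C1 had 35.4 and 32.5 CPM. KRT80 had 48.9 and 57.7 CPM against 5.35 and 4.73 CPM (log2 3.40). No library of one kind overlapped one of the other in these 5 called genes. That alone says little, since the groups did not overlap in KMT2D either, which was not called.

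Among 13 basal and stress keratins 5 were higher and 1 lower. The lower was KRT14, a defining keratin of basal cells, with 235 and 295 CPM in C1-sgEED-Epi and 1270 and 1240 CPM in C2-Epi (log2 -2.24, SE 0.203, adjusted p = 2.2e-06). Its partner KRT5 had 3840 and 4640 CPM against 3850 and 3810 CPM, log2 0.15 (adjusted p = 0.60). KRT15, a keratin of basal progenitors, had 371 and 460 CPM against 55.4 and 56.3 CPM (log2 2.90), and KRT6B, a keratin of wounded epithelium, 70.8 and 88.1 CPM against 1.81 and 2.42 CPM (log2 5.23). C1 was above both kinds for KRT15 (1390 and 1500 CPM) and KRT6B (190 and 161 CPM), but C1-sgControl, with 123 and 165 CPM of KRT15 and 31.1 and 33.3 CPM of KRT6B, lay between them. KRT14 stood at 2080 and 2520 CPM in C1-sgControl and at 1830 and 1900 CPM in C1.

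Luminal mammary genes were higher in 9 of 16 measured and lower in none, median log2 1.36. GATA3, the master factor of luminal cells, had 16.6 and 17.9 CPM in C1-sgEED-Epi and 1.7 and 0.999 CPM in C2-Epi (log2 3.67, SE 0.246, adjusted p = 1.7e-07). ESR1, the oestrogen receptor, had 2.78 and 2.63 CPM against 0.289 and 0.615 CPM. SPDEF, an Ets factor of secretory cells, had 11.5 and 11.3 CPM against 2.31 and 1.81 CPM, and AGR2, a secretory chaperone, 99.1 and 126 CPM against 21.7 and 22.1 CPM. The count fell to 5 without the second C2-Epi library. Against C1, 3 of these genes were higher and 3 lower in C1-sgEED-Epi, and 7 were lower in C2-Epi. Against C1-sgControl, 6 were higher and 4 lower in C1-sgEED-Epi, and 1 was higher and 7 lower in C2-Epi.

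Junction genes differed in part. Of 29 genes of epithelial adhesion and polarity 10 were higher and 1 was lower (TJP3, chosen after its value was seen), and the count of higher genes was 6, 6 and 5 without the second C1-sgEED-Epi, the first C2-Epi or the second C2-Epi library. CLDN1, a tight junction protein, had 332 and 376 CPM in C1-sgEED-Epi and 31.7 and 35.3 CPM in C2-Epi (log2 3.40, adjusted p = 0.00041), although it lies at the end of chromosome 3, where the median gene was lower in C1-sgEED-Epi. CLDN4 had 5.26 and 7.16 CPM against 2.38 and 1.73 CPM, and ST14, the protease matriptase, 88.8 and 107 CPM against 34.1 and 33.8 CPM. EPCAM had 110 and 132 CPM against 98.8 and 103 CPM (adjusted p = 0.24), and P-cadherin (CDH3) 278 and 329 CPM against 252 and 238 CPM (adjusted p = 0.20). Of 15 desmosome genes 3 were higher and 1 lower, and all but the call of EVPL, a plaque protein with 17.9 and 18.7 CPM against 9.5 and 8.34 CPM, ended without 1 or another library. Of 12 genes of hemidesmosomes and their laminin, LAD1 and NID1 were higher (16.7%, near the 17.4% of all genes) and none was lower. ITGB4, the hemidesmosome integrin, had 634 and 705 CPM against 722 and 687 CPM (adjusted p = 0.76). Against C1, 3 adhesion and polarity genes were higher and 12 lower in C1-sgEED-Epi, while 1 was higher and 16 were lower in C2-Epi. Against C1-sgControl these counts were 6 and 15 in C1-sgEED-Epi and 4 and 17 in C2-Epi. No desmosome gene was higher than in C1 in either kind, and 9 were lower in C1-sgEED-Epi and 8 in C2-Epi. Relative to C1-sgControl, 1 desmosome gene was higher and 5 lower in C1-sgEED-Epi, and 3 and 7 in C2-Epi.

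Of 14 epithelial transcription factors 5 were higher, ELF3, GRHL1, EHF, KLF4 and GRHL2, and ZNF750 was lower. The 5 became 3 without the second C1-sgEED-Epi or the first C2-Epi library, since KLF4 and GRHL2 were lost in both. ELF3 (1.37 and 1.69 CPM against 0.217 and 0.307 CPM) and EHF (2.36 and 1.97 CPM against 0.47 and 0.423 CPM) are Ets factors of differentiated epithelia. GRHL1, a grainyhead factor, had 6.82 and 7.44 CPM against 1.19 and 1.31 CPM and lies at the start of chromosome 2, where 76.7% of genes were higher. TP63, the master factor of basal cells, had 137 and 149 CPM against 163 and 181 CPM (adjusted p = 0.39). Genes of epidermal differentiation and the S100 family were higher in 9 of 24 and lower in 2, S100A3 and S100A4, and with any 1 library left out 4 to 6 were higher. The products of S100A8 and S100A9 form calprotectin. S100A8 had 7.58 and 9.34 CPM in C1-sgEED-Epi against 0.47 and 0.615 CPM in C2-Epi, and S100A9 had 17.0 and 23.1 CPM against 3.0 and 3.34 CPM. Against C1, none of these 24 genes was higher and 16 were lower in C1-sgEED-Epi, while 1 was higher and 20 were lower in C2-Epi. Against C1-sgControl, 1 was higher and 13 were lower in C1-sgEED-Epi, while none was higher and 16 were lower in C2-Epi.

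Mesenchymal genes were higher in C1-sgEED-Epi alongside the simple keratins. Of 29 mesenchymal genes 15 were higher and 5 lower (NT5E, S100A4, DDR2, FBLN5 and ACTA2), with a median log2 difference of 0.50. N-cadherin (CDH2) had 80.3 and 77.9 CPM in C1-sgEED-Epi and 10.3 and 7.46 CPM in C2-Epi (log2 3.15, SE 0.363, adjusted p = 2.6e-05), while C1 had 2.5 and 1.39 CPM. Both kinds thus lay above C1. THY1, a surface protein of stromal cells also called CD90, had 202 and 234 CPM against 17.6 and 14 CPM. TAGLN, an actin-binding protein of smooth muscle, had 10.7 and 13.4 CPM against 1.19 and 0.769 CPM, and the adhesion molecule NCAM1 13.6 and 12.9 CPM against 0.0361 and 0.0769 CPM. THY1, TAGLN and NCAM1 all lie in the stretch of chromosome 11 with a median log2 difference of 0.97, whose part in their differences was not tested. Others fell. ACTA2, smooth muscle actin, had 16.2 and 19.1 CPM against 58.8 and 53.5 CPM (log2 -1.67), and NT5E, the ectonucleotidase CD73, 140 and 124 CPM against 297 and 311 CPM (log2 -1.21).

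Vimentin (VIM) had 1110 and 1300 CPM in C1-sgEED-Epi and 858 and 801 CPM in C2-Epi (log2 0.54, adjusted p = 0.010), and fibronectin (FN1) 15200 and 17000 CPM against 12400 and 12500 CPM (log2 0.37, adjusted p = 0.030). The groups did not overlap in either gene, but nor did they in genes without a call such as KMT2D. Both calls rested on the replicates: that of FN1 ended with any 1 of the 4 libraries left out (adjusted p between 0.086 and 0.27), and that of VIM ended without each but the first C1-sgEED-Epi library (adjusted p between 0.058 and 0.12).

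The 17 measured drivers of EMT gave 7 higher and none lower. FOXC2, a forkhead factor, had 11.7 and 14.8 CPM in C1-sgEED-Epi and 1.08 and 1.11 CPM in C2-Epi (log2 3.59). FOXQ1, another forkhead factor, had 3.08 and 3.37 CPM against 0 counts, at least 28.9-fold higher. SOX4 had 63.2 and 63.9 CPM against 25.8 and 28.8 CPM. PRRX1, SNAI1 and TWIST1 were higher too, of which SNAI1 was lost without the first C1-sgEED-Epi or the second C2-Epi library and TWIST1 without the first C2-Epi library. ZEB1, the zinc-finger repressor of E-cadherin, had 6.02 and 1.61 CPM against 2.17 and 1.88 CPM, so that the groups overlapped (adjusted p = 0.25). ZEB2 had 3.58 and 1.9 CPM against 2.17 and 0.884 CPM (adjusted p = 0.13), which overlapped as well. SNAI2 had 125 and 143 CPM against 170 and 177 CPM (adjusted p = 0.35). SNAI2 passed as lower in the fits of only the compared libraries and of the 10 epithelial ones (adjusted p = 0.012 in both). ZEB1 passed as higher with no filter on low counts (adjusted p = 0.0026), and ZEB2 in 3 other fits: with no filter (0.02), without the first C2-Epi library (0.037) and after correction for GC and length (0.0083). In C2-Mes, ZEB1 had a mean of 134 CPM and ZEB2 one of 70.2 CPM.

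Of 37 matrix genes 21 were higher and 3 lower (COL4A2, LTBP2 and FBLN1), median log2 1.21. VCAN, which encodes the proteoglycan versican, had 284 and 121 CPM in C1-sgEED-Epi and 3.36 and 4.34 CPM in C2-Epi (log2 5.72, SE 0.481, adjusted p = 1.5e-06). LUM, the proteoglycan lumican, had 4.15 and 2.21 CPM against 0.0722 and 0.0769 CPM, and LAMA4, a laminin chain of vessels and muscle, 1.83 and 1.51 CPM against 0.0361 and 0 CPM. The fibrillar collagen genes COL5A2 (58.7 and 64.2 CPM against 1.84 and 2.19 CPM) and COL3A1 (20 and 16.6 CPM against 1.3 and 1.88 CPM) and the microfibril gene FBN1 (34.6 and 32.5 CPM against 3.21 and 2.5 CPM) were also higher. Of these only LAMA4, LUM, VCAN and DCN fall under the naming rule. FBLN1, fibulin-1, had 7.12 and 7.76 CPM against 25.7 and 24.0 CPM (log2 -1.74).

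Metalloproteinases and their inhibitors were higher in 14 of 20 measured genes and lower in 1. MMP1, the interstitial collagenase, had 4.99 and 5.26 CPM in C1-sgEED-Epi and 0.181 and 0.423 CPM in C2-Epi (log2 4.08, SE 0.384, adjusted p = 3.3e-06). MMP10 had 1.22 and 1.86 CPM against 0.108 and 0.0769 CPM, and MMP13 1.26 and 1.05 CPM against 0 and 0.0769 CPM. MMP28, made by resting epithelium, was the lower one, with 1.6 and 1.3 CPM against 9.68 and 11 CPM (log2 -2.83). MMP1, MMP7, MMP10 and MMP13 sit in the stretch of chromosome 11 that was higher as a whole, and MMP9 and MMP24 on chromosome 20, which was higher too, so that 6 of the 14 lie in such regions. Against C1 the list had 6 higher and 3 lower in C1-sgEED-Epi, and 2 higher and 13 lower in C2-Epi, and against C1-sgControl it had 7 higher and 6 lower in C1-sgEED-Epi and 3 higher and 14 lower in C2-Epi.

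**Figure D4:**
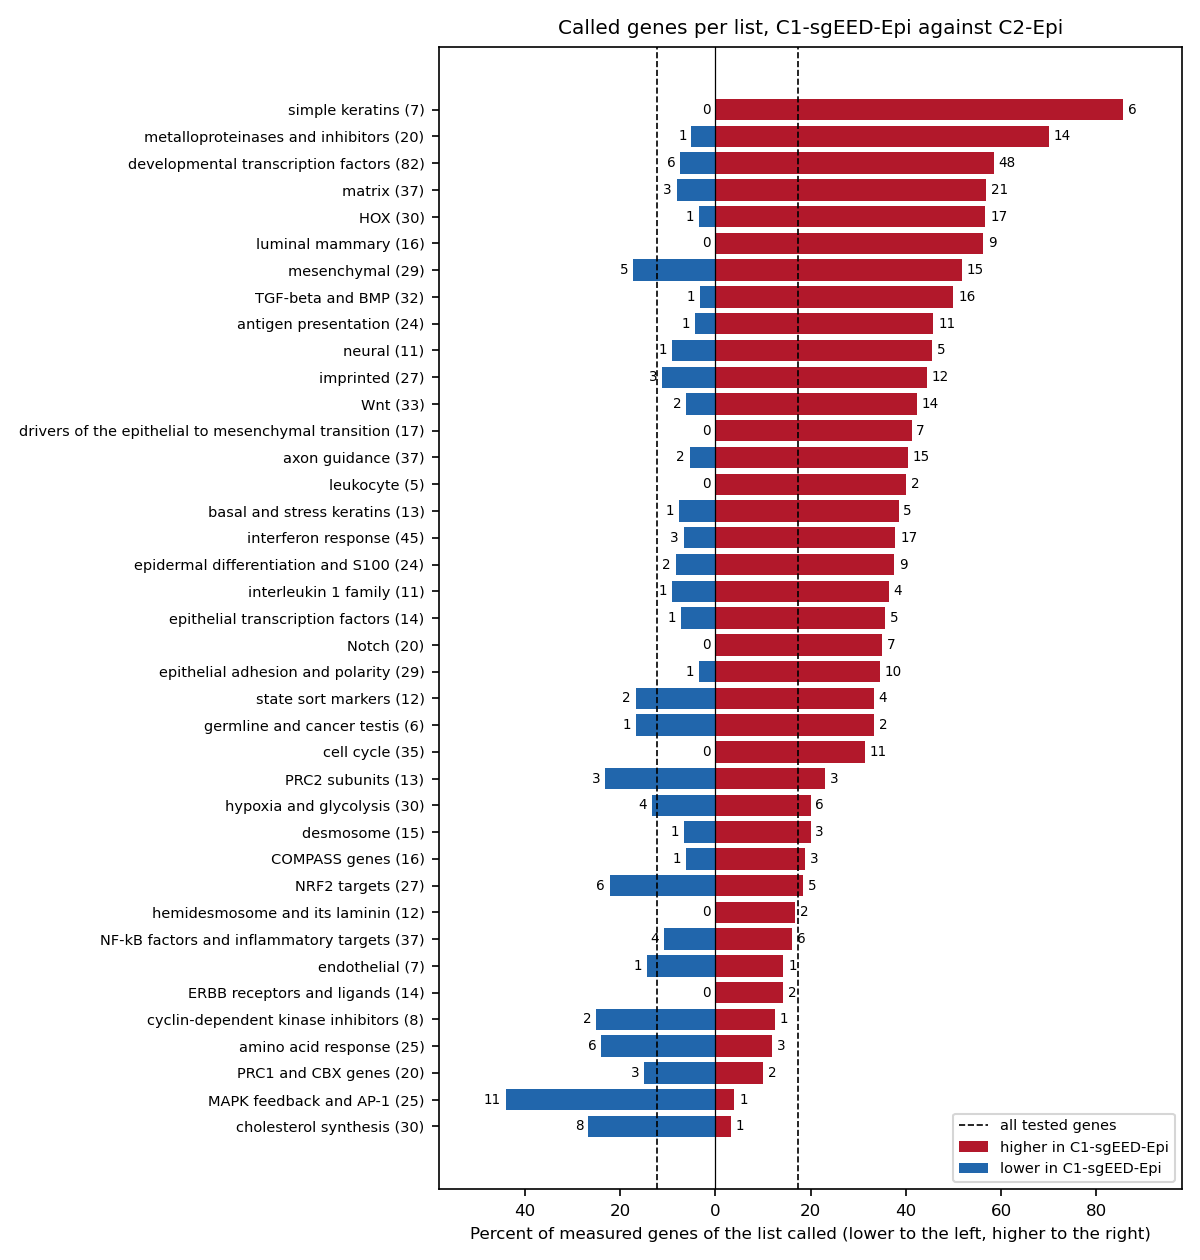
Share of the measured genes of each list with at least 5 of them, number in brackets, called higher (red, to the right) or lower (blue, to the left) in C1-sgEED-Epi than in C2-Epi, with the number called at the end of each bar and dashed lines at 17.4% and 12.2%, the shares among all tested genes. The list of simple keratins (6 of 7), which also holds KRT80 and the hair keratins KRT81 and KRT86, stands at the top. Cholesterol synthesis (1 higher, 8 lower) and MAPK feedback (1 higher, 11 lower) stand at the foot.

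Genes of the TGF-beta and BMP pathways, which drive EMT and matrix production, were higher in 16 of 32 and lower in 1, GDF15, whose call ended with any 1 library left out. The ligand TGFB2 had 76.1 and 64.2 CPM in C1-sgEED-Epi and 5.02 and 5.53 CPM in C2-Epi (log2 3.73, SE 0.279, adjusted p = 4.2e-07). The target TGFBI had 534 and 629 CPM against 123 and 118 CPM (log2 2.27). The secreted antagonists NOG (10.5 and 12.6 CPM against 0.65 and 0.922 CPM) and FST (115 and 120 CPM against 16.2 and 17.3 CPM) were higher as well. Against C1, 9 genes of the list were higher and 1 lower in C1-sgEED-Epi, while 4 were higher and 12 lower in C2-Epi. Against C1-sgControl, 11 were higher and 9 lower in C1-sgEED-Epi, while 5 were higher and 13 lower in C2-Epi.

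Wnt genes were higher in 14 of 33 and lower in WNT2B and LRP5. The ligands WNT9A (12.1 and 11.9 CPM against 1.26 and 0.692 CPM) and WNT5B (3.35 and 3.12 CPM against 0.181 and 0.154 CPM), the receptor ROR2 (1.71 and 2.04 CPM against 0.0722 and 0.0769 CPM) and the antagonist DKK1 (246 and 275 CPM against 51.0 and 57.0 CPM) were all higher. LRP5, a coreceptor, had 45.4 and 52.5 CPM against 130 and 119 CPM. The Notch list had 7 of 20 higher and none lower, and 3 to 6 with 1 library left out. The ligand DLL1 had 10.3 and 12.2 CPM against 4.41 and 4.23 CPM, the modifier LFNG 11.2 and 11.8 CPM against 3.11 and 2.73 CPM, and the target HES4 2.93 and 2.56 CPM against 0.253 and 0.115 CPM. Axon guidance genes were higher in 15 of 37 and lower in 2, UNC5C and ROBO4. The ephrin receptors EPHA4 (11.3 and 11.6 CPM against 0.144 and 0.269 CPM) and EPHB6 (11 and 12.5 CPM against 0.433 and 0.231 CPM), with the semaphorin SEMA3D (8.64 and 3.12 CPM against 0.108 and 0.115 CPM), had the largest differences among them. The call of SEMA3D was lost in the edgeR fit of only the compared libraries (adjusted p = 0.052). SEMA3D lies on chromosome 7 between 80 and 90 Mb, where 45.8% of 24 genes were higher.

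Genes of MAPK feedback and AP-1, which ERK signalling is known to induce, were mostly lower where they were called. Of 25 measured 11 were lower in C1-sgEED-Epi and 1, FOSL2, was higher, and the median log2 difference was -0.51. The Ets factors ETV1 (17.0 and 15.7 CPM against 59.8 and 71.2 CPM in C2-Epi, log2 -2.0) and ETV5 (31.0 and 36.3 CPM against 100 and 104 CPM, log2 -1.60), the feedback inhibitor SPRY4 (25.5 and 27.6 CPM against 63.2 and 60.3 CPM, log2 -1.22) and PHLDA1 (91.1 and 93.0 CPM against 213 and 259 CPM, log2 -1.36) were lower. ETV5 and SPRY2 lie in regions that were lower as a whole. EGR1, DUSP5, DUSP6, IER3 and JUNB, chosen after their values were seen, were lower by between 0.67 and 1.21 on the log2 scale. With 1 library left out 10 or 11 were lower. HRAS had 96.3 and 108 CPM against 115 and 109 CPM (adjusted p = 0.61), and reads of the introduced gene cannot be told apart from those of the native one. Against C1, 5 of the list were higher and 2 lower in C1-sgEED-Epi, while 12 were higher and 1 was lower in C2-Epi. Against C1-sgControl the balance was another one, with 3 higher and 14 lower in C1-sgEED-Epi and 7 higher and 8 lower in C2-Epi. The list summed to 2620 and 3080 CPM in C1-sgEED-Epi and 4220 and 4400 CPM in C2-Epi, and to means of 5300 CPM in C1-sgControl and 2320 CPM in C1. Among 14 ERBB receptors and ligands 2 were higher (14.3%, beside 17.4% of all genes). EPGN (epigen) had 24.2 and 11.8 CPM against 0.289 and 0.653 CPM, and the other was BTC, whose call ended with any 1 library left out.

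Genes of the interferon response were higher in 17 of 45 and lower in 3 (OAS1, OAS3 and IFITM1), and the count of higher genes fell to between 8 and 13 with 1 library left out. The guanylate-binding proteins GBP1 (48.5 and 36.7 CPM against 11.3 and 10.7 CPM) and GBP2 (3.77 and 4.56 CPM against 0.433 and 0.346 CPM) and the antiviral IFITM2 (13.8 and 16.6 CPM against 3.97 and 3.61 CPM) were higher. Of antigen presentation 11 of 24 were higher and 1 was lower, HLA-E, but 4 to 8 were higher with 1 library left out. The immunoproteasome subunits PSMB8 (32.5 and 38.4 CPM against 19.2 and 16.4 CPM) and PSMB9 (6.93 and 9.72 CPM against 1.99 and 2.92 CPM) kept the call in all 4 such fits. Against C1, the interferon list had 6 higher and 8 lower in C1-sgEED-Epi, while 1 was higher and 19 were lower in C2-Epi. Against C1-sgControl this turned, with 22 higher and 5 lower in C1-sgEED-Epi and 17 higher and 11 lower in C2-Epi. Of 37 NF-kB factors and inflammatory targets 6 were higher and 4 lower (CSF3, ICAM1, LTB and C3), shares of 16.2% and 10.8% near those of all genes. The cytokine IL24 (10.5 and 11.5 CPM against 0.325 and 0.231 CPM) and the chemokine CXCL1 (35.5 and 43.1 CPM against 2.38 and 1.96 CPM) were the largest of the higher ones. In the interleukin 1 family 4 of 11 were higher, IL18 with 110 and 119 CPM against 32.1 and 31.9 CPM, and IL1RAP was lower. IL18 lies in the stretch of chromosome 11 that was higher as a whole, and IL1RAP at the end of chromosome 3, where the median gene was lower. The part of these regions in both differences was not tested.

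Cell cycle genes were higher in 11 of 35 and lower in none, and in 6 without the second C2-Epi library. RRM2, a subunit of ribonucleotide reductase, had 311 and 377 CPM in C1-sgEED-Epi and 89.6 and 87.1 CPM in C2-Epi (log2 1.96), E2F2 8.23 and 9.05 CPM against 1.52 and 1.38 CPM, and cyclin D2 (CCND2) 400 and 424 CPM against 130 and 129 CPM. Of the 11, E2F1, MYBL2 and PCNA lie on chromosome 20, which was higher as a whole. Of 8 cyclin-dependent kinase inhibitors CDKN1C was higher, and CDKN2B and CDKN2C were lower, neither of which kept the call in all fits with 1 library left out. Cholesterol synthesis had 8 of 30 lower and 1 higher, but 3 lower with any 1 library left out, among them MSMO1 (267 and 249 CPM against 490 and 586 CPM) and IDI1 (124 and 113 CPM against 230 and 249 CPM). Of 25 genes of the amino acid response 6 were lower and 3 higher. CHAC1, a glutathione-degrading target of ATF4, had 5.67 and 6.46 CPM against 21.8 and 22.4 CPM, while PYCR1, an enzyme of proline synthesis, had 31.9 and 39.2 CPM against 2.78 and 2.61 CPM. Hypoxia and glycolysis gave 6 higher and 4 lower of 30, with EGLN3 at 32.7 and 37.4 CPM against 2.35 and 2.92 CPM and VEGFA at 126 and 146 CPM against 291 and 332 CPM. With 1 library left out these counts were 3 and 1 or 2. NRF2 targets, with AKR1C1 at 4.72 and 5.47 CPM against 13.3 and 14.4 CPM, gave 5 higher (18.5%) and 6 lower (22.2%) of 27. Among all genes these shares were 17.4% and 12.2%. The 5 were 1 without the second C1-sgEED-Epi library or either C2-Epi library.

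Imprinted genes, expressed from 1 parental copy, were higher in 12 of 27 and lower in 3. SNRPN, of the Prader-Willi region, was lower, with 0.0762 and 0.0702 CPM in C1-sgEED-Epi, 8.2 and 8.07 CPM in C2-Epi and 16.2 and 16.6 CPM in C1 (log2 -6.70, SE 0.341, adjusted p = 1.3e-08). MEG8, a maternally expressed RNA of the DLK1 region, was higher (2.86 and 2.35 CPM against 0.108 and 0.0769 CPM), as was MEG3 of the same region, chosen after its value was seen (108 and 102 CPM against 6.61 and 7.3 CPM). The other 2 lower genes were SLC22A18 and RB1, the second of which lies on chromosome 13. Of 43 listed germline and cancer testis genes 6 passed the filter, LIN28B and TEX15 (31.4 and 12.5 CPM against 0.361 and 0.269 CPM) were higher, and POU5F1 was lower (1.22 and 1.23 CPM against 3.5 and 4.5 CPM). The sum over this list was 52.1 and 22.8 CPM in C1-sgEED-Epi, against 4.55 and 5.38 CPM in C2-Epi.

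Polycomb and COMPASS genes outside PRC2 were called in shares not far from those of all genes. Of 20 PRC1 and CBX genes 2 were higher, BCOR (27.4 and 29.3 CPM against 12.7 and 12.1 CPM) and CBX2, and 3 lower, among them PHC2 and PHC3. Of 16 COMPASS genes PAGR1, WDR5 and SETD1B were higher (18.8%) and KDM6A was lower (6.25%), beside 17.4% higher and 12.2% lower of all genes. In these lists every call but that of BCOR ended without 1 or more of the libraries. KMT2D had 118 and 125 CPM in C1-sgEED-Epi and 116 and 115 CPM in C2-Epi (log2 0.08, adjusted p = 0.77).

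Of 12 surface markers used to sort such states 4 were higher and 2 lower. CD24, an epithelial and luminal marker, had 318 and 356 CPM against 131 and 133 CPM (log2 1.35, adjusted p = 7.5e-05), and CD44, a marker of basal and stem-like cells, 1080 and 1130 CPM against 764 and 803 CPM (log2 0.50, adjusted p = 0.014, between 0.079 and 0.16 with 1 library left out). THY1 and ENG were the other 2 higher genes, and ITGB1 and NT5E the lower ones. Markers of other tissues were also seen. Of 11 neural genes 5 were higher and 1 lower, ENO2, among them the intermediate filament NES with 9.9 and 10.7 CPM against 0.181 and 0.192 CPM. With 1 library left out 2 to 4 were higher. Of 5 leukocyte genes LCP1, an actin-bundling protein, was higher at 114 and 131 CPM against 0.831 and 0.807 CPM, as was CSF1R, while 4 listed leukocyte genes were at 0 in both C1-sgEED-Epi libraries and 5 in both C2-Epi libraries. Of 7 endothelial genes ERG was higher and PECAM1 lower (14.3% each, beside 17.4% and 12.2% of all genes), and of 4 muscle genes TNNT2 was lower.

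A share of the differences lay in blocks of neighbouring genes. Windows of 10 Mb with at least 20 tested genes were taken along each chromosome, 278 in all, and in 26 of these at least 40% of genes were called in 1 direction. With the whole of chromosome 13 they held 1448 tested genes (7.92%) and 852 of the 5417 called (15.7%). The windows were chosen by their calls in this same comparison, so their larger share of called genes follows from the choice. Chromosome 11 was split: from 70 to 80 Mb the median log2 difference was -1.15 and 71.2% of 104 genes were lower, whereas from 80 to 140 Mb it was 0.97 and 61.2% of 281 genes were higher. In C2-Epi the same blocks lay at median log2 values of 1.02 and -0.91 relative to C1, and in C1-sgEED-Epi at -0.11 and 0.09. The first 20 Mb of chromosome 18 had a median of -1.01, with 70.8% of 65 genes lower, and stood at 1.15 in C2-Epi and -0.04 in C1-sgEED-Epi relative to C1. On chromosome 20 the median was 0.51 and 43.0% of 481 genes were higher.

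On chromosome 13 the median log2 difference was -0.93 and 58.2% of 337 genes were lower in C1-sgEED-Epi, which lay at -0.58 relative to C1, while C2-Epi lay at 0.32. Between the mesenchymal libraries, C1-sgEED-Mes over C2-Mes, the median of chromosome 13 was 0.19. The blocks of chromosomes 11 and 18 recurred there, with medians of -1.23, 1.04 and -1.28. The first 10 Mb of chromosome 2, with a median of 1.10 and 76.7% of 30 genes higher between the epithelial kinds, had 0.03 between the mesenchymal ones. The copy number of these regions was not measured, and its part in the differences was not tested. Outside the windows and chromosome 13, a set of genes chosen after seeing the data, 2777 genes were higher (16.5%) and 1788 lower (10.6%).

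**Figure D5:**
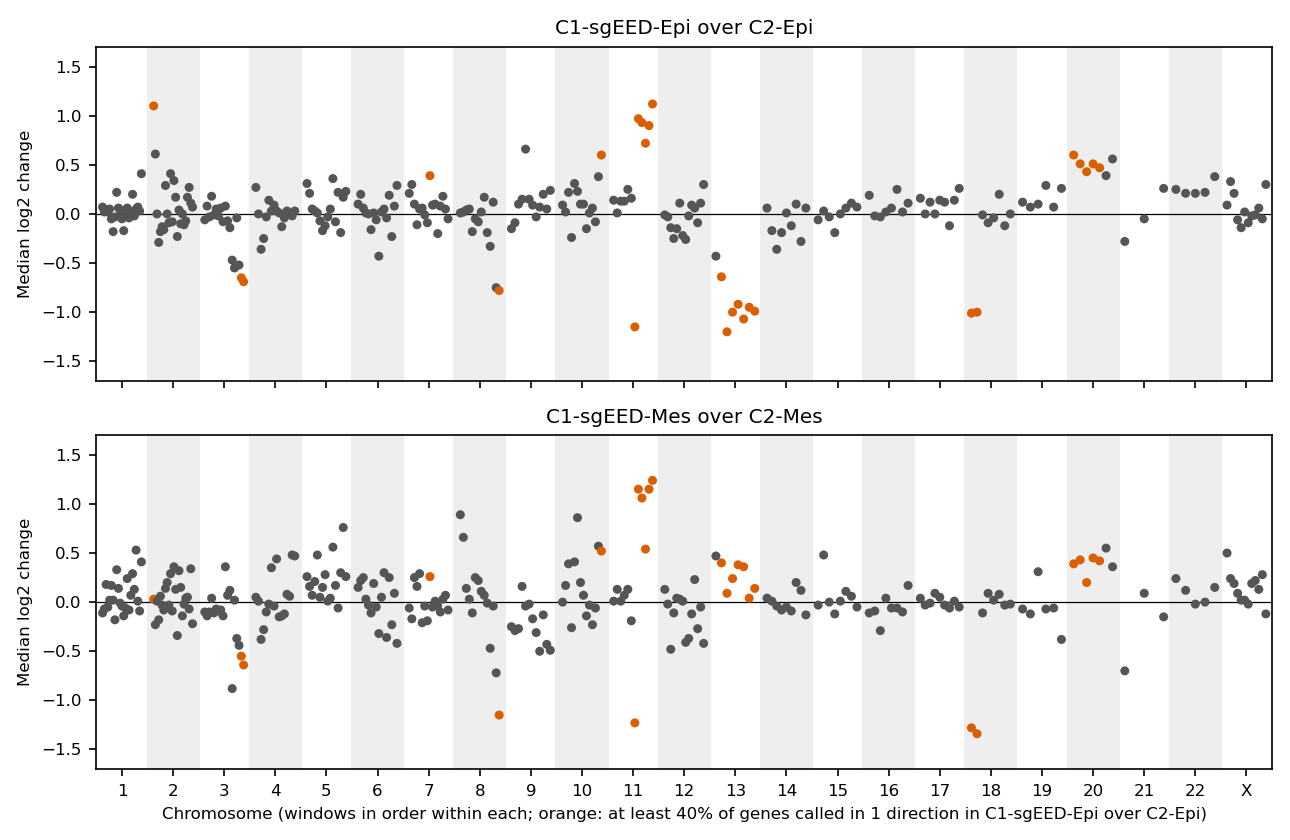
Median log2 difference of the tested genes in windows of 10 Mb, in order along each chromosome, for C1-sgEED-Epi over C2-Epi (top) and C1-sgEED-Mes over C2-Mes (bottom). Orange points mark the 26 windows with at least 40% of genes called in 1 direction in the top comparison; those of chromosome 13 lie between -1.20 and -0.64 in the top panel and between 0.04 and 0.40 in the bottom one.

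The mesenchymal cells of both kinds, which share no library with the epithelial ones, allow the same comparison in other samples. C1-sgEED-Mes had 3974 genes higher than C2-Mes (21.7%) and 3690 lower (20.2%). Of the 5417 genes called between the epithelial kinds, 2789 were called in the same direction between the mesenchymal kinds, which is 51.5% of the epithelial and 36.4% of the mesenchymal calls, and 504 were called in the opposite one. Of the 1867 genes higher by a log2 of at least 1, 1141 (61.1%) were also called higher and 159 (8.52%) lower in C1-sgEED-Mes. Of the 1284 lower by as much, 665 (51.8%) were called lower and 107 (8.33%) higher. Of the 82 developmental factors 56 were higher and 8 lower in C1-sgEED-Mes, and of the 30 HOX genes 19 and 1.

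EYA4 had 45.8 and 47.1 CPM in C1-sgEED-Mes against 0 counts in C2-Mes, and WT1 5.73 and 6.03 CPM against 0 counts. PDZRN3 went the other way in both states, with 0 counts in C1-sgEED-Mes against 27.8 and 30.5 CPM in C2-Mes. Not every gene carried over. DCN had 191 and 196 CPM in C1-sgEED-Mes and 258 and 152 CPM in C2-Mes, a difference that did not pass (adjusted p = 0.82), and the log2 difference between the epithelial and the mesenchymal contrast was 11.07 (adjusted p = 5e-07). SNRPN had 8.74 and 9.38 CPM in C1-sgEED-Mes, against 11 and 16.4 CPM in C2-Mes (difference between the contrasts -6.10, adjusted p = 2e-07). The difference between the contrasts passed the test in 3866 genes (21.1%).

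Several lists had other counts between the mesenchymal kinds, a difference between lists that was not tested. Epithelial adhesion and polarity had 10 higher and 1 lower between the epithelial kinds, but 4 higher and 8 lower between the mesenchymal ones. NF-kB targets had 6 higher and 4 lower against 6 higher and 18 lower, and cholesterol synthesis 1 and 8 against 1 and 20. Cell cycle genes had 11 higher and none lower against 31 higher and 2 lower. KRT8, at means of 955 CPM in C1-sgEED-Mes and 29.5 CPM in C2-Mes, differed more between the mesenchymal kinds than between the epithelial ones (difference between the contrasts -3.62, adjusted p = 3.7e-08), and so did CD24 (-4.46, adjusted p = 2.6e-07). MAPK feedback and AP-1 genes were lower in both, 11 of 25 between the epithelial and 13 between the mesenchymal kinds.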

How the data were processed

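RNA-seq counts of 16 libraries in 8 groups of 2 were used. The authors deposited raw read counts per gene; per the submitters' processing notes, reads were aligned with STAR 2.7.1a to GRCh38 and counted with featureCounts. The annotation release, strand setting and treatment of reads with several matches are not given in the sources used here. Per the labels' protocols, total RNA came from cultured or sorted cells.

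From the counts, edgeR 4.0.16 (R 4.3.3) was used with filterByExpr, TMM scaling and a robust quasi-likelihood fit. The fit took all 16 libraries, gave each group its own mean and left 8 residual degrees of freedom, and 18285 genes were tested. A call is a Benjamini-Hochberg adjusted p under 0.05 over all genes tested. CPM are counts per 1000000 of the TMM-scaled total. Folds against a group at 0 use a floor of 3 counts per library, and ratios on few counts have exact 95% intervals; both cover counting error only. Gene positions come from GENCODE and promoters from RefSeq, matched by symbol. Figures were drawn with matplotlib 3.10.9.

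Named genes were the 12 highest and 12 lowest called protein-coding genes (group mean of 5 CPM or more on the higher side), up to 4 called genes of each of 40 lists by size of difference and 1 CPM or more, and a set of EED, PRC2, EMT and keratin genes. The comparison, lists and rule were chosen with earlier results of these data known, so counts over a list are descriptions with no test of their own. Alternatives were RLE scaling, no filter, DESeq2 1.42.0 (Wald), smaller fits (the compared libraries alone, or the 10 epithelial ones), a replicate block, a GC and length correction (spline fits in R, given to edgeR as offsets), leaving out each library and, added after seeing the data, C1-sgControl in place of C1. The fits were tested on simulated data.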

Additional observations from a re-analysis of the deposited data

Results flagged for a closer look

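The difference between C1-sgEED-Epi and C2-Epi was set against that between C1-sgEED-Mes and C2-Mes in 1 model. Considered here were the 12 highest genes, the 12 lowest and the set named in any case (EED, PRC2, EMT, keratin and other genes). For 23 of these the contrasts differed (edgeR's quasi-likelihood test, adjusted p under 0.05 over all genes tested). Genes named only through a list were left out, though some of them differed as well, such as EPHA4 (adjusted p = 8.5e-09). For each of the 23, the value given is the epithelial minus the mesenchymal log2 difference, where each contrast is C1-sgEED over C2 cells.

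Among the genes with the highest and lowest differences, the contrasts differed by 11.07 for DCN (epithelial 11, mesenchymal -0.08), by 10.04 for GPR173 (10.09 and 0.06 in the same order) and by 8.36 for GUCY1B1 (10.12 and 1.76). On the lower side they differed by -6.21 for NYNRIN (epithelial -4.60, mesenchymal 1.62), -6.10 for SNRPN (-6.70 and -0.61), -3.88 for HPCAL4 (-4.50 and -0.62) and -2.78 for INHBE (-3.94 and -1.15). NYNRIN was thus lower in C1-sgEED-Epi than in C2-Epi and higher in C1-sgEED-Mes than in C2-Mes.

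Among epithelial genes, the values were -3.62 for KRT8, -2.0 for KRT18, -4.46 for CD24, -1.23 for KRT14 and -0.96 for KRT5. KRT8, KRT18 and CD24 were higher in the C1-sgEED cells in both states, with mesenchymal log2 differences of 5.02, 2.79 and 5.81. The basal genes TP63 (3.86) and ITGB4 (2.67) and the cadherins CDH1 (1.79) and CDH3 (1.63) had positive values. Mesenchymal log2 differences were -4.13 for TP63, -2.74 for ITGB4, -1.21 for CDH1 and -1.33 for CDH3.

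Among mesenchymal genes, ZEB1 had 2.37, VIM 0.90, FN1 -1.05 and SNAI2 -1.92. The remaining values were 1.72 for EED, -1.0 for EZH2 and 1.14 for HRAS. EED was higher between the epithelial kinds (log2 0.57) and lower between the mesenchymal ones (-1.15).

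With each of the 8 libraries of both contrasts left out in turn, the call was kept in 8 of 8 fits for all of these genes except CDH1 (3 of 8, highest adjusted p = 0.11), ZEB1 (3 of 8, 0.34) and KRT5 (4 of 8, 0.073). The calls of CDH1, VIM, ZEB1, KRT5 and KRT14 were lost in the fit of only the compared libraries.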

How the results depend on the processing

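Of 181 named genes 168 were called in C1-sgEED-Epi against C2-Epi, 133 of these under every alternative, and none turned its direction. The most calls, 27, were lost without the second C2-Epi library. With each library of C1-sgEED-Epi or C2-Epi left out, 1760 to 2449 genes were higher and 1389 to 2196 lower, and at a log2 of 1 or more in size 1351 to 1621 were higher and 1002 to 1566 lower. Between the mesenchymal kinds 3450 to 4877 were higher and 2914 to 4739 lower, and the contrasts differed in 2744 to 5536. In the fit of 10 epithelial libraries 3404 genes were lower in C1-sgEED-Epi than in C2-Epi. In the fit of only the compared libraries 2044 genes were higher and 1523 lower in C1-sgEED-Mes than in C2-Mes, and the contrasts differed in 2130. The causes of these changes in number were not tested. Of 960 counts over lists 759 stayed within 1.5 times. The median log2 difference of the sort markers, 0.13, was -0.01 with the GC and length correction and between -0.03 (without the second C1-sgEED-Epi library) and 0.08 (without the second C2-Epi library) with 1 library left out, and -0.02 without the first C1-sgEED-Epi library.

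Libraries with the same replicate number did not vary together (r = -0.14 between the epithelial kinds and -0.159 between the mesenchymal ones), so the numbers were not used as pairs. With a replicate block 3081 genes were higher and 2249 lower in C1-sgEED-Epi, 3933 higher and 3664 lower in C1-sgEED-Mes, and 3732 differed between the contrasts. With the numbers of C2 crossed, an alternative chosen after seeing the data, 3018 were higher and 2103 lower in C1-sgEED-Epi, and 3831 and 3579 in C1-sgEED-Mes. Counts over lists against C1 changed with C1-sgControl in its place, as given beside them. With 2 libraries a group, a difference that did not pass may still exist.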
